A study of Mus musculus with 33 samples.

Results

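The miRNAs described here are mmu-miR-15a, mmu-miR-15b, mmu-miR-16, mmu-miR-195 and mmu-miR-497, a family of mouse miRNAs that begin with the same seed. They were taken by name, without the starred partner strands, and make up 5 of the 611 mouse miRNAs and 5 of the 650 miRNAs on the array. Lung RNA of female C57BL/6 mice, a common inbred strain, was measured on 33 one-colour arrays. The exposed mice had received 0.162 mg of Printex 90, a carbon black of nanosized particles, by a single instillation into the trachea, and the control mice had received the vehicle, saline with acellular bronchoalveolar lavage fluid. Lungs were taken after 1, 3 or 28 days from 6, 4 and 5 exposed mice and from 6 control mice on each day. The whole lung was extracted, so fewer cells of a type and less of a miRNA per cell cannot be told apart in any value below.

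A miRNA guides the silencing complex to messenger RNAs that pair with its seed, bases 2 to 8 counted from its 5′ end, and these messengers are then translated less and degraded sooner. Family members share the seed and so share many predicted targets. Those best known for this family are messengers of the cell cycle, such as cyclins D1 and E1, and of the survival protein BCL2. In humans the locus of miR-15a and miR-16 is often deleted in chronic lymphocytic leukaemia, and in the mouse heart miR-195 is known for a part in the withdrawal of heart muscle cells from the cell cycle after birth.

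The mature sequences of all 5 matched RefSeq entries on build GRCm38.p6 and are shown because the family is defined by them. The seed is in capitals, and the last sequences belong to miR-322, which has the same seed, and to miR-503, whose seed differs from it in its last base.
miR-15a: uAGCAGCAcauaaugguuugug
miR-15b: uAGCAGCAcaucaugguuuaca
miR-16: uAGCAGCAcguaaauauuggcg
miR-195: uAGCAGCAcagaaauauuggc
miR-497: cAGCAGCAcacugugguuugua
miR-322: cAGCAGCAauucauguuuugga
miR-503: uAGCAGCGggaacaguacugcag

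Beyond the seed the members fell into closer and more distant pairs. miR-16 and miR-195 were identical at 19 of 21 positions compared from the 5′ end, and at 11 of the 13 positions after base 8. miR-15a and miR-15b were identical at 18 of 22 positions. miR-195 and miR-497, which come from the same locus, were identical at only 12 of 21. The array names mmu-miR-195 and mmu-miR-497 carry no arm or letter, so these were matched to RefSeq as Mir195a and Mir497 through the synonyms in its gene table. Of the 1679 mature mouse names in the RefSeq table, 10 have this seed.

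The genes lie in 3 clusters. Mir15a (mature strand at chr14:61632075-61632096, minus strand) and Mir16-1 (chr14:61631936-61631957, minus strand) lie within the gene Dleu2, a long noncoding RNA, with 54 bases between their annotated hairpins. Mir15b (chr3:69009775-69009796, plus strand) and Mir16-2 (chr3:69009918-69009939, plus strand) lie within Smc4, which encodes a condensin subunit, with 66 bases between them. Mir497 (chr11:70234730-70234751, plus strand) and Mir195a (chr11:70235062-70235082, plus strand) have 241 bases between them. Mir16-1 and Mir16-2 give the same mature sequence, so the array signal of miR-16 is the sum of both loci. Mir322 (chrX:53054306-53054327, minus strand) and Mir503 (chrX:53054027-53054049, minus strand) lie in a further cluster.

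All 5 members were above background on 33 of 33 arrays, as were 94 of the 650 miRNAs. Each was read by 2 probes with 10 spots apiece, and both probes of each were above background on 33 arrays. The files hold no probe sequences, so how far one member's RNA binds another member's probe, which matters most for the near-identical miR-16 and miR-195, was not tested. The partner strands named miR-15a*, miR-15b* and miR-16* on the array were above background on 0 arrays, and no starred strand of miR-195 or miR-497 was found among its names. miR-503 was above background on 1 array, an exposed lung of day 28, and miR-503* on 0. miR-322 was above background on 33 arrays and is set beside the members below.

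Array brightness before scaling, taken as the 75th percentile over probes seen on every array, spanned 187.3 to 1211 intensity units, and 99 to 193 mouse miRNAs were above background per array. At day 1 it averaged 654 ± 95.6 units (SD) on the 6 exposed arrays and 472 ± 288 on the 6 control arrays, 1.58-fold on the log scale (exact permutation p = 0.0779, two-sided, adjusted p = 0.117 over the 3 days, of which day 3 had 628 ± 117 and 709 ± 310 and a fold of 0.951). At day 28 it averaged 653 ± 285 units on the 5 exposed arrays and 956 ± 215 on the 6 control arrays, 0.653-fold (exact permutation p = 0.0606, adjusted p = 0.117). The signal was scaled to this percentile, so values below are log2 of a relative signal within the measured miRNAs. Slides numbered 9, and scan days 5. Control arrays held the first positions of each slide and exposed arrays the last, and the effects of position and of exposure cannot be told apart. miR-124 and miR-9, defining miRNAs of brain, and the muscle miRNA miR-206 were above background on 0 arrays. The endothelial miR-126 arms and 5 or 6 of 7 epithelial markers were above background on at least 1 array of every group. For miR-126-5p this was 1 of 6 control arrays of day 1. The epithelial marker miR-205 was above background on 0 arrays, and miR-203 on 0 arrays of both day 1 groups and of exposed lungs of day 3.

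The 4 arrays of slide 1 stood apart in this family. They comprise exposed replicate 3 and control replicate 1 of day 1, and exposed replicate 4 and control replicate 2 of day 3, and none of day 28. On these arrays miR-15a averaged 0.65, miR-15b 0.68, miR-195 0.61 and miR-497 0.56 log2 units above the other 29 arrays, and miR-16 averaged 0.58 units below them (a log2 difference of -0.58). For miR-15a, miR-15b and miR-16 the 4 arrays did not overlap the other 29. miR-15b and miR-15a ranked 2 and 5 from the top among 94 miRNAs by this difference, and miR-16 ranked 83. How many of the 94 showed no overlap was not counted, so the separation is not shown to be particular to this family. The direction was the same for each member under each of 7 other settings (normexp, total gene signal, mean over probes, series table, and other or no scaling). Both probes of miR-16 were lower there, by log2 differences of -0.58 and -0.82. The difference between miR-15a and miR-16 within an array, which scaling an array by 1 factor cannot move, was 1.20 to 1.62 on the 4 arrays and -0.16 to 0.42 on the other 29. The 4 arrays also share 1 scan day that no other slide has. The changes of the members on days 1 and 3 are therefore given below with and without these arrays.

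**Figure D1:**
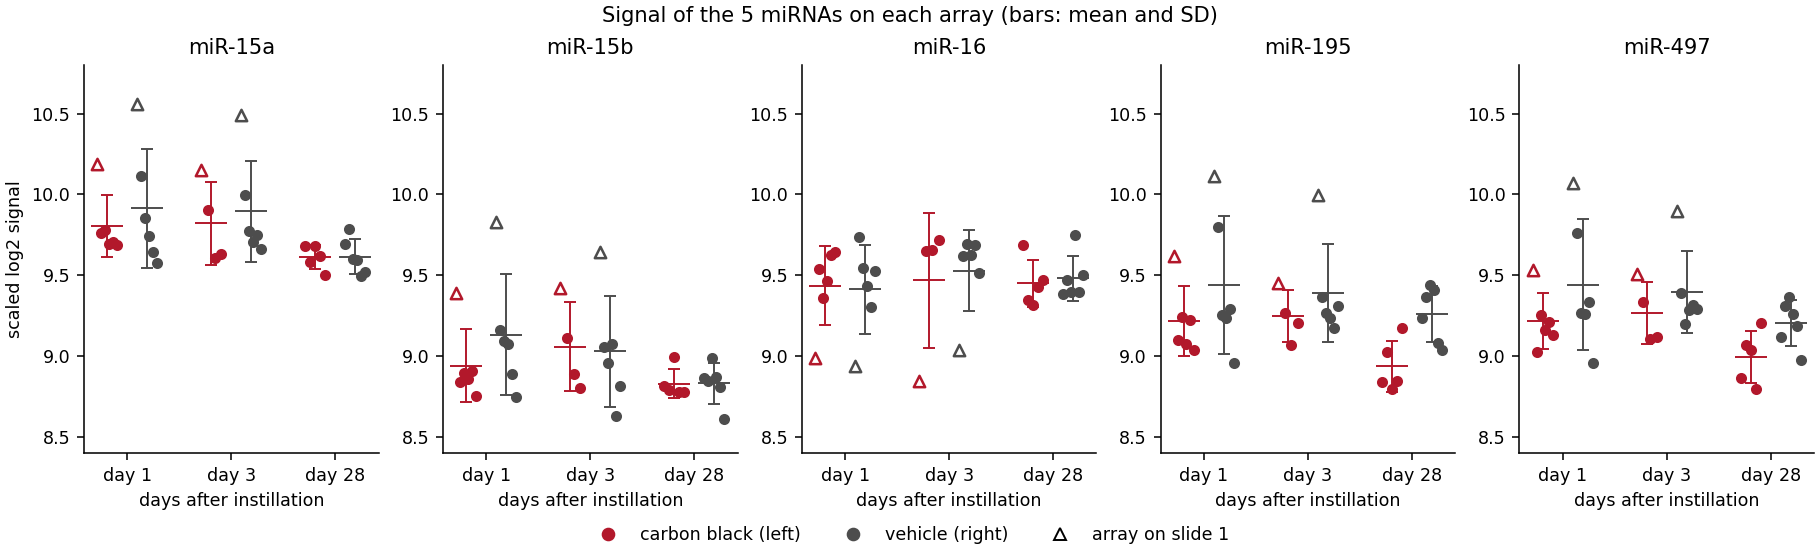
Scaled log2 signal (y axis) of each member on each array by day after instillation (x axis), with carbon black arrays in red left of vehicle arrays in grey, bars for the mean and SD, and open triangles for slide 1. Triangles lie above the other points for miR-15a and miR-15b and below them for miR-16, and signals of different probes are not comparable in height.

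The first comparison asked which members differed between exposed and control lungs on each day. None of the 5 passed a limma test with Benjamini-Hochberg adjustment over 172 miRNAs on any day. With the brighter of their 2 probes, miR-195 and miR-497 had lower fitted values in exposed lungs on each of the 3 days. These were 0.798 to 0.914 times the control level, while miR-16 lay within 0.06 log2 units of the controls on each day. The dimmer probe of miR-195 gave smaller log2 changes of -0.15, -0.07 and -0.21 on days 1, 3 and 28. That of miR-497 gave -0.14, 0.001 and -0.11, so its decrease at day 3 was not seen with both probes.

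The values of miR-195, the member with the change farthest from 0 on each day, are given first. At day 1 its log2 signal in exposed lungs ran from 9.04 through a median of 9.16 to 9.62, against 8.96, 9.27 and 10.11 in control lungs. At day 3 exposed lungs had 9.45, 9.27, 9.07 and 9.20, and control lungs ran from 9.17 through 9.29 to 10.00. At day 28 exposed lungs had 8.84, 9.02, 8.80, 8.85 and 9.17, and control lungs ran from 9.04 through 9.30 to 9.44. The groups overlapped on every day. At day 28, 4 of 5 exposed lungs lay below the lowest control lung, and the fifth lay inside the control range.

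At day 1 exposed lungs averaged 9.22 ± 0.21 (SD, n = 6) in miR-195 and control lungs 9.44 ± 0.43 (SD, n = 6), a log2 change of -0.22 ± 0.15 (SE, limma adjusted p = 0.516). At day 3 exposed lungs averaged 9.25 ± 0.16 (SD, n = 4) and control lungs 9.39 ± 0.30 (SD, n = 6), a log2 change of -0.14 ± 0.17 (SE, limma adjusted p = 0.996). At day 28 exposed lungs averaged 8.94 ± 0.16 (SD, n = 5) and control lungs 9.26 ± 0.17 (SD, n = 6), a log2 change of -0.32 ± 0.16 (SE, limma adjusted p = 0.628, unadjusted p = 0.049). That is 0.798 times the control level, with a 95% interval of 0.638 to 0.999. Among the 172 miRNAs the change of miR-195 ranked 164 from the highest at day 28, and the median of all was -0.03.

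miR-497, transcribed from the same cluster, followed miR-195 closely. At day 1 it ran from 9.03 through a median of 9.19 to 9.54 in exposed lungs, against 8.96, 9.30 and 10.07 in control lungs. At day 3 exposed lungs had 9.51, 9.34, 9.11 and 9.12, and control lungs ran from 9.20 through 9.30 to 9.89. At day 28 exposed lungs had 8.86, 9.07, 9.04, 8.80 and 9.20, and control lungs ran from 8.98 through 9.22 to 9.37. The groups overlapped on every day, and at day 28 only 2 of 5 exposed lungs lay below all controls. The log2 changes were -0.22 ± 0.14 at day 1, -0.13 ± 0.16 at day 3 and -0.21 ± 0.15 at day 28 (SE, limma adjusted p = 0.499, 0.996 and 0.864).

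The values of both miRNAs on days 1 and 3 leaned on single arrays. Without control replicate 1 of day 1, which lies on slide 1, the day 1 log2 change was -0.09 for miR-195 and -0.10 for miR-497, and without control replicate 27 it was -0.32 for both. Without all of slide 1 it was -0.17 and -0.16. At day 3 the log2 change was -0.02 for miR-195 and -0.03 for miR-497 without control replicate 2, and -0.21 for both without exposed replicate 4, which lie on slide 1. Without all of slide 1 it was -0.09 and -0.11. At day 28, which has no array on slide 1, leaving out any 1 array gave -0.38 to -0.29 for miR-195 and -0.26 to -0.16 for miR-497. The processing moved these day 28 values further. miR-195 had -0.15 with the authors' series table, -0.57 with the percentile over all probes and -0.94 with no scaling, where the medians of all 172 miRNAs were -0.005, -0.28 and -0.65. miR-497 had -0.04, -0.45 and -0.82 in the same settings. With no scaling, the day 1 log2 changes were 0.44 for both, below the median of 0.56 for all 172 miRNAs. With normexp the day 1 median of all 172 was -0.36. No alternative setting gave less than -0.25 for miR-195 or -0.24 for miR-497 at day 1, so with normexp both lay above that median. The direction at day 1 therefore depended on the processing, for the raw signal and relative to the other miRNAs.

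miR-15a and miR-15b are encoded apart but close in sequence, and their fitted changes at day 28 were near 0 as scaled here. With the authors' series table these were 0.19 and 0.12, and with no scaling -0.62 for both (miR-16 had 0.15 and -0.65). At day 1 miR-15a ran from 9.69 through a median of 9.73 to 10.19 in exposed lungs, against 9.58, 9.80 and 10.56 in control lungs. At day 3 exposed lungs had 10.15, 9.90, 9.61 and 9.63, and control lungs ran from 9.66 through 9.76 to 10.49. At day 28 exposed lungs had 9.68, 9.58, 9.68, 9.62 and 9.50, and control lungs ran from 9.50 through 9.60 to 9.79. The groups of miR-15a overlapped throughout, and at day 28 both had an SD near 0.1, with log2 changes of -0.11, -0.07 and -0.003 on the 3 days (limma adjusted p = 0.714, 0.996 and 0.989). Leaving out 1 array moved the day 1 value to between -0.19 (without exposed replicate 3) and 0.02 (without control replicate 1), and the day 3 value to between -0.18 (without exposed replicate 4) and 0.05 (without control replicate 2). Without all of slide 1 these values were -0.06 at both days.

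At day 1 miR-15b ran from 8.76 through a median of 8.88 to 9.39 in exposed lungs, against 8.75, 9.08 and 9.83 in control lungs. At day 3 exposed lungs had 9.42, 9.12, 8.89 and 8.80, and control lungs ran from 8.63 through 9.01 to 9.64. At day 28 exposed lungs had 8.81, 8.79, 8.99, 8.78 and 8.78, and control lungs ran from 8.61 through 8.85 to 8.99. Its groups overlapped on each day too, with log2 changes of -0.19, 0.03 and 0 (limma adjusted p = 0.607, 0.996 and 1). At day 1 its change was close in size to those of miR-195 and miR-497. It was -0.28 without exposed replicate 3 of day 1, -0.05 without control replicate 1 and -0.14 without all of slide 1. The day 3 value was -0.09 without exposed replicate 4, 0.15 without control replicate 2 and 0.03 without all of slide 1. The 95% interval of its fold at day 28 was 0.801 to 1.248.

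miR-16, which pools the output of the loci in Dleu2 and Smc4, ran from 8.99 through a median of 9.50 to 9.64 in exposed lungs of day 1, against 8.94, 9.48 and 9.74 in control lungs. At day 3 exposed lungs had 8.85, 9.65, 9.66 and 9.72, and control lungs ran from 9.04 through 9.62 to 9.69. At day 28 exposed lungs had 9.69, 9.35, 9.32, 9.43 and 9.47, and control lungs ran from 9.38 through 9.43 to 9.75. In all 4 groups of days 1 and 3 the lowest value came from slide 1, and the groups overlapped on each day. The log2 changes were 0.02 ± 0.14, -0.06 ± 0.16 and -0.03 ± 0.15 (SE, limma adjusted p = 0.938, 0.996 and 0.986), with 95% intervals of the fold of 0.831 to 1.242, 0.766 to 1.201 and 0.792 to 1.207. Leaving out 1 array gave -0.07 (without control replicate 1) to 0.11 (without exposed replicate 3) at day 1 and -0.16 (without control replicate 2) to 0.15 (without exposed replicate 4) at day 3. Without all of slide 1 the changes at these days were 0.02 and 0.05, the second with the other sign. The second, dimmer probe of miR-16 gave 0.19, 0.07 and 0.05.

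Of the 5 members, 0 were called at day 1, where 0% of the 172 miRNAs were called. At day 3 and at day 28 the count was again 0 of 5, against 0% of the 172 on both days. At an unadjusted p under 0.05, limma had 16, 2 and 13 of the 172 miRNAs on days 1, 3 and 28, and 0, 0 and 1 of the 5 members, the last being miR-195. The median log2 change of the members was -0.19, -0.07 and -0.03, beside -0.10, -0.04 and -0.03 for all 172. The exposure changes of different days were also compared directly. In the 3 differences between days, 0 of 5 members and 0% of the 172 were called (limma adjusted p of the members 0.925 to 0.999), and miR-195 differed between day 28 and day 1 by -0.10 ± 0.22 (SE). With no scaling, 4 of 5 members and 69.2% of the 172 were called in the difference between days 28 and 1. The lower level of miR-195 at day 28 is therefore not shown to be particular to that day.

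**Figure D2:**
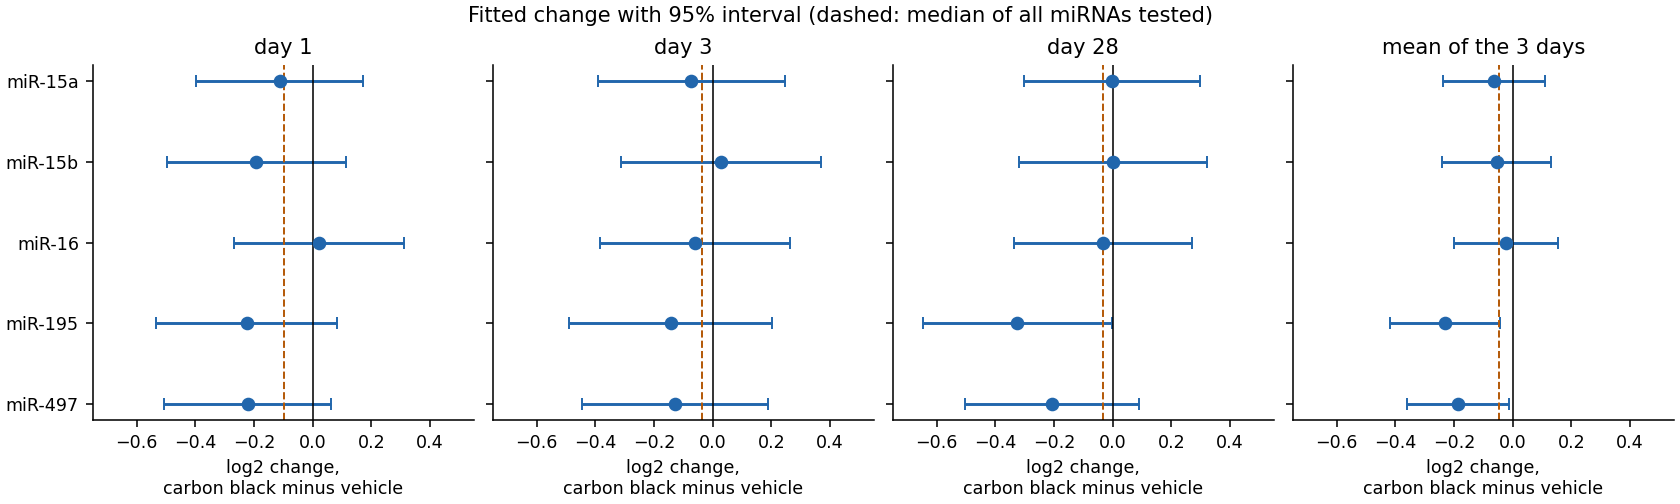
Fitted log2 change, carbon black minus vehicle (x axis), of each member (rows) on each day and averaged over the days, with 95% intervals and the median of the 172 miRNAs tested as a dashed line. The intervals that lie wholly below 0 are those of miR-195 at day 28 (upper end -0.001) and of miR-195 and miR-497 in the mean (-0.043 and -0.014).

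Averaged over the 3 days with equal weight, miR-195 had a log2 change of -0.23 ± 0.09 (SE), or 0.852 times the control level (95% interval 0.748 to 0.971), and miR-497 one of -0.19 ± 0.09, or 0.879 times (0.78 to 0.991). Their unadjusted p-values were 0.0178 and 0.0353, and the limma adjusted p-values of 0.3 and 0.405 did not pass. The means of miR-15a, miR-15b and miR-16 were -0.06, -0.06 and -0.02 (limma adjusted p = 0.8, 0.839 and 0.948). Of the 5 members 0 were called, and 0.581% of the 172 miRNAs were. The median over all 172 was -0.05, and 68% of them had a lower fitted value in exposed lungs.

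The outcome for miR-195 and miR-497 changed when slides were taken into account. With slide as a fixed block the mean log2 change was -0.25 for miR-195 (limma adjusted p = 0.0345) and -0.21 for miR-497 (0.0458), and 2 of 5 members were called where 8.14% of the 172 miRNAs were. With scan day as a fixed block it was -0.25 (0.0227) and -0.21 (0.0411), with 5.81% of the 172 called. Slide as a random block gave -0.24 and -0.20 (limma adjusted p = 0.0525 and 0.0608), which did not pass. Without slide 1 and with no block they were -0.19 and -0.16 (limma adjusted p = 0.103 and 0.195). The direction of both means was the same in all 15 alternative settings and in all 33 fits that left out 1 array, at -0.26 to -0.19 for miR-195 and -0.22 to -0.12 for miR-497.

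Each exposed array shared its slide with 1 control array of the same day, which gives 15 differences within a slide. miR-195 was lower in the exposed array in 13 of 15, by day in 5 of 6, 4 of 4 and 4 of 5, with a median of -0.19 and a range of -0.70 to 0.09. miR-497 was lower in 13 of 15 as well, with the same counts by day, a median of -0.17 and a range of -0.74 to 0.18. miR-15a was lower in 10 of 15 and miR-15b in 11 of 15, with medians of -0.05 for both. miR-16 was lower in 7 and higher in 8, with a median of 0.03. Without slide 1, miR-195 and miR-497 were each lower in 11 of 13. These counts were not made over the 172 miRNAs, of which 68% had a lower fitted mean over the days in exposed lungs. Several slides gave a pair on more than 1 day, so the 15 differences are not independent. The 3 differences of miR-195 beyond -0.55 came from slide 2 at day 1 and from slides 5 and 6 at day 28.

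**Figure D3:**
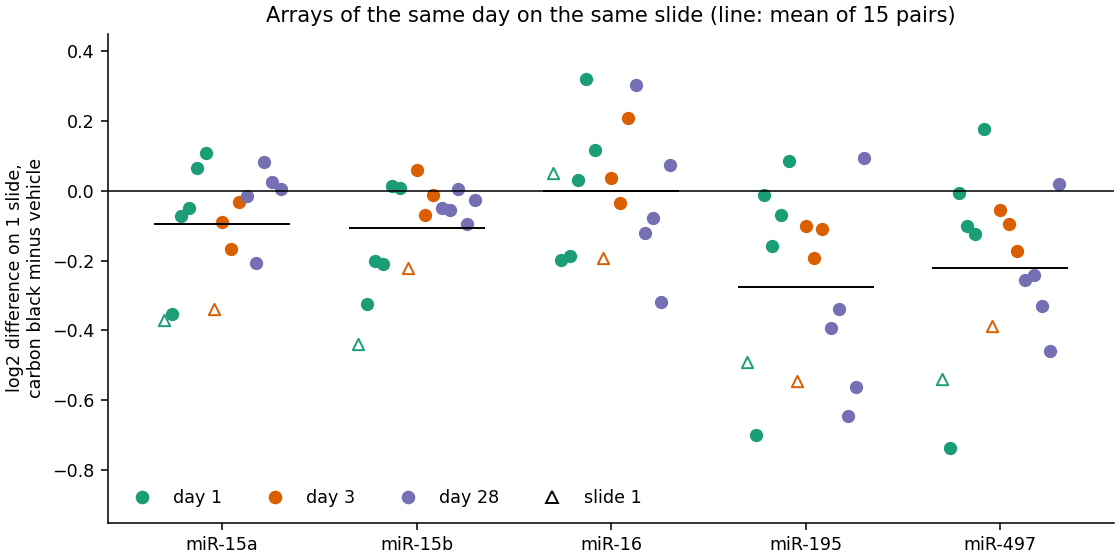
Log2 difference between the carbon black array and the vehicle array of the same day on the same slide (y axis) for each member (x axis), coloured by day, with slide 1 as open triangles and a line at the mean of the 15 pairs. For miR-195 and miR-497, 13 of 15 points lie below 0, and for miR-16, 7 lie below and 8 above.

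Markers of other cell types differed between the same groups in places, though 0 of the markers tested passed on any day (smallest limma adjusted p = 0.0994, for miR-223 at day 1). The summed signal of 3 myeloid markers (miR-223, miR-142-3p and miR-142-5p, 3 of 3 above background) had a median of 1720 (995 to 2090) in exposed and 1190 (1050 to 1550) in control lungs at day 28, of 1780 (866 to 2300) in exposed and 1080 (572 to 1810) in control lungs at day 1, and of 1400 (968 to 1520) and 1320 (919 to 1590) at day 3. The brightest myeloid marker was miR-142-3p, with log2 changes of 0.51, 0.02 and 0.35 on days 1, 3 and 28. miR-223 had 0.82, 0.20 and 0.12, and miR-142-5p had 0.43, -0.19 and 0.15. The 2 endothelial miR-126 arms summed to a median of 5230 (4200 to 6150) in exposed and 5870 (5500 to 6680) in control lungs at day 28. That sum is carried by the bright miR-126-3p (log2 change -0.19), and the dim miR-126-5p had 0.25. The 3 fibroblast markers on the array summed to 783 (747 to 873) in exposed and 871 (830 to 1010) in control lungs at day 28, carried by miR-199a-3p (-0.18), while miR-199a-5p and miR-214 had 0.05 and 0.02. At day 1 the endothelial medians were 6440 in exposed and 6660 in control lungs, and the fibroblast medians 874 and 969. At day 3 the endothelial medians were 6620 in exposed and 6520 in control lungs, and the fibroblast medians 906 and 896. The 3 erythroid markers miR-144, miR-451 and miR-486 summed to 5120 (2940 to 8800) in exposed and 5750 (5260 to 7740) in control lungs at day 28, and to 7710 (5930 to 13100) and 6450 (4130 to 7540) at day 3. At day 1 the erythroid medians were 6460 in exposed and 7670 in control lungs. The erythroid sum is carried by miR-451, with log2 changes of -0.22, 0.42 and -0.20 on days 1, 3 and 28. miR-144 had 0.17, 0.46 and -0.245, and miR-486 had -0.02, 0.56 and -0.10. Of the 4 markers of striated muscle, 3 were above background on some arrays. Their sum had medians of 121 (33 to 972) in exposed and 46.4 (28.3 to 1020) in control lungs at day 1, and 63.8 (27.9 to 86.5) and 135 (68.6 to 445) at day 3. At day 28 it ran from 28.7 to 78 in exposed and from 34.9 to 256 in control lungs. The part of these differences in the levels of miR-195 and miR-497 was not tested.

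Differences between members within an array test whether the members differed unevenly, and they do not depend on the factor by which an array is scaled. Only their change between groups is read, since different probes have different brightness. Of 15 such comparisons, 5 pairs on 3 days, 0 passed an exact permutation test after Benjamini-Hochberg adjustment. The smallest p was for miR-195 minus miR-16 at day 28. Exposed lungs had -0.84, -0.33, -0.52, -0.58 and -0.29 and averaged -0.51 ± 0.22 (SD, n = 5), against -0.22 ± 0.19 (SD, n = 6) and a range of -0.46 to 0.05 in control lungs. The difference was -0.29 (exact permutation p = 0.039, two-sided, adjusted p = 0.552), and the groups overlapped. The smallest p this design allows at day 28 is 0.00433. The permutations take no account of slides, and slide 1 moves the differences from miR-16 by over 1 log2 unit. Without slide 1, 0 of the 15 passed either (adjusted p = 0.432 to 0.857). Between arrays of the same day on the same slide, miR-195 minus miR-16 was lower in the exposed array in 13 of 15 pairs (mean -0.28 ± 0.24, SD) and miR-497 minus miR-16 in 13 of 15 (mean -0.22 ± 0.23), by day in 4 of 6, 4 of 4 and 5 of 5. Without slide 1 each was lower in 11 of 13. miR-15b minus miR-16 was lower in 6 of 6 pairs at day 1, 3 of 4 at day 3 and 2 of 5 at day 28.

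The cluster partners miR-195 and miR-497 kept nearly the same difference throughout. At day 1 it averaged -0.003 ± 0.08 in the 6 exposed lungs and -0.001 ± 0.03 in the 6 control lungs (SD), and at day 3 -0.02 ± 0.07 in the 4 exposed and -0.005 ± 0.09 in the 6 control lungs. At day 28 it was -0.06 ± 0.11 in the 5 exposed lungs and 0.06 ± 0.09 in the 6 control lungs (exact permutation p = 0.0736, adjusted p = 0.552). The differences of miR-15a and miR-15b from miR-16 changed by -0.22 to 0.09 between exposed and control lungs over the 3 days, with SDs of up to 0.68 on the days that include slide 1. Without slide 1 they changed by -0.16 to 0.03, and the difference of miR-195 and miR-497 by -0.01 at day 1 and 0.02 at day 3.

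Members were then compared with each other across lungs, as deviations from the mean of each group. The 4 arrays of slide 1 form a cluster of their own, so the other 29 arrays were used. miR-195 and miR-497 varied together, with Pearson's r = 0.891 and Spearman's rho = 0.759 (permutation p adjusted over 15 pairs 0.00015 and 0.0003, where the unadjusted 1e-05 of r is the smallest that 100000 resamples can give). Without the 2 arrays farthest from the median r was 0.771, and after centring each slide it was 0.926. miR-15a and miR-15b came next, with r = 0.642 and rho = 0.659 (adjusted permutation p = 0.00165 and 0.00187), 0.58 without the 2 farthest arrays and 0.524 within slides. Pairs across these clusters were positive too. miR-15a had r = 0.576 with miR-195 and 0.573 with miR-497 (adjusted permutation p = 0.00467 each), where rho was 0.365 and 0.31 and did not pass (adjusted p = 0.131 and 0.215). miR-15b had r = 0.521 with miR-195 and 0.559 with miR-497 (adjusted permutation p = 0.00797 and 0.00467), with rho of 0.437 and 0.466 (adjusted p = 0.0563 and 0.0448). Without the 2 farthest arrays these 4 values of r were 0.341, 0.348, 0.411 and 0.538. Within slides they were 0.484, 0.583, 0.543 and 0.605. The p-values set each r against 0, and closeness particular to the family was not tested. Outside the family, r over the 29 arrays reached 0.812 for miR-15a and 0.718 for miR-15b, both with miR-106b. Both lay above the r of miR-15a with miR-15b. It reached 0.853 for miR-195 with miR-151-5p and 0.865 for miR-497 with miR-99a, both below the r of miR-195 with miR-497.

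For miR-16 no relation with its cluster partners passed. Its r was 0.262 with miR-15a (rho 0.121, adjusted permutation p = 0.212 and 0.615) and -0.01 with miR-15b (rho -0.06, adjusted p = 0.958 and 0.797). With miR-195, which differs from it at 2 of 21 positions compared, r was 0.231 (rho 0.015, adjusted p = 0.264 and 0.94). When slide 1 was included these values were -0.665, -0.735 and -0.562, so the negative relation over all 33 arrays rests on those 4 arrays. Each correlation is between deviations on the same arrays after the same scaling, which they share. The permutations of the correlations also take no account of slides. Arrays of a slide are not independent, so these p-values may be too small. The 2 probes of each member correlated at 0.889 for miR-195 to 0.996 for miR-15a over 33 arrays, with 0.948 for miR-16.

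**Figure D4:**
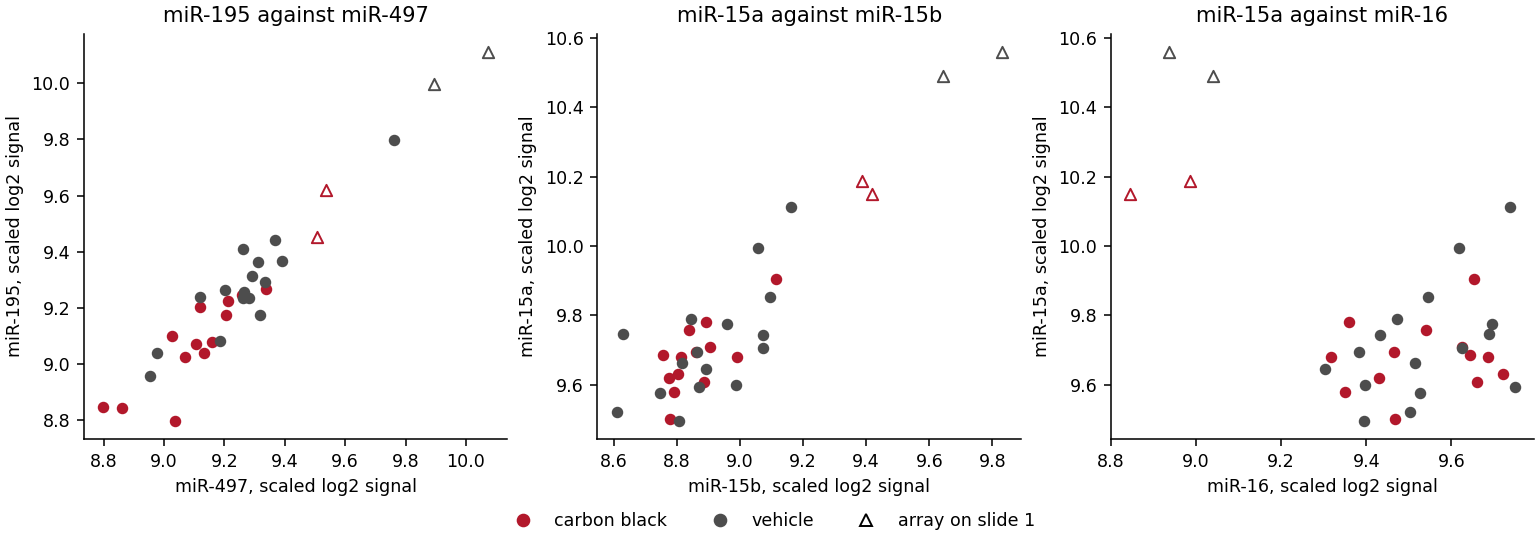
Scaled log2 signal of 1 member against another on each array, with carbon black in red, vehicle in grey and slide 1 as open triangles. miR-195 follows miR-497 on all arrays, miR-15a follows miR-15b, and miR-15a against miR-16 splits into the 4 arrays of slide 1 and the other 29.

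The miRNAs outside the family whose deviations were most like each member's were ranked over 33 arrays among 89 that were above background on all. Their r over the 29 arrays without slide 1 is given after each. For miR-195 they were miR-151-5p (0.925, then 0.853) and let-7i (0.89, then 0.707), and for miR-497 miR-99a (0.94, then 0.865) and miR-25 (0.913, then 0.825). For miR-15a they were miR-106b (0.924, then 0.812) and miR-107 (0.915, then 0.708), and for miR-15b let-7g (0.913, then 0.704) and miR-106b (0.898, then 0.718). For miR-16 they were miR-125b-5p (0.878, then 0.458) and miR-30e (0.846, then 0.359). Without slide 1 these ranked 9 and 21 for miR-16, so they were not its closest there. let-7i for miR-195 and let-7g for miR-15b then ranked 4, and miR-107 for miR-15a ranked 3. miR-25 for miR-497 ranked 2, and the others ranked 1. The lowest of the 89 for miR-195 and for miR-497 was miR-142-3p, found in blood cells, at -0.88 (then -0.689) and -0.849 (then -0.611). For miR-15a and miR-15b the lowest was miR-30e, at -0.88 (then -0.506) and -0.846 (then -0.311). For miR-16 it was let-7d, at -0.722 (then 0.144).

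The relative miR-322, which shares the seed but lies on the X chromosome, averaged 7.97 ± 0.13 (SD) in the 6 exposed lungs of day 1 and 8.25 ± 0.43 in the 6 controls. It averaged 8.06 ± 0.23 in the 4 exposed lungs of day 3 and 8.30 ± 0.38 in the 6 controls, and 7.69 ± 0.27 in the 5 exposed lungs of day 28 and 7.80 ± 0.17 in the 6 controls. Its log2 changes were -0.28, -0.23 and -0.11, with a mean of -0.21 ± 0.10 (SE, limma adjusted p = 0.471), and it was lower in 12 of 15 pairs on the same slide. Without slide 1 the differences of the means were -0.16, -0.19 and -0.11, and it was lower in 10 of 13 pairs. It was higher on slide 1 by 0.68 log2 units. Its correlation over the 29 arrays was 0.592 with miR-195 (rho 0.524, adjusted permutation p = 0.0036 and 0.0201) and 0.378 with miR-497 (rho 0.288, adjusted p = 0.0668 and 0.217).

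The time course within each treatment showed how the members varied between days. In exposed lungs it includes any change in the effect of exposure, and only that of control lungs is free of it. In exposed lungs, day 28 against day 1, the log2 changes were -0.19 for miR-15a, -0.11 for miR-15b, 0.01 for miR-16, -0.28 for miR-195 and -0.23 for miR-497 (limma adjusted p = 0.388 to 0.962). In control lungs they were -0.30, -0.30, 0.07, -0.18 and -0.24 (limma adjusted p = 0.189 to 0.755). In both, 0 of 5 members were called, against 0% of the 172 miRNAs in exposed and 6.98% in control lungs. The median over all 172 was -0.13 in exposed and -0.17 in control lungs. Of the other comparisons between days, 0 of 5 were called for day 3 against day 1 (0% of the 172 in exposed and 0% in control lungs) and for day 28 against day 3 (1.74% in exposed and 0.581% in control lungs).

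Slide 1 holds arrays of days 1 and 3 only, and the values for control lungs depended on it. Without it, the log2 changes of control lungs from day 1 to day 28 were -0.17 for miR-15a, -0.16 for miR-15b, -0.03 for miR-16, -0.05 for miR-195 and -0.11 for miR-497 (limma adjusted p = 0.244 to 0.873). With no scaling they were 0.89 to 1.26 and all 5 passed, where the median of all 172 miRNAs was 1.02 and 82.6% were called. miR-15b alone of the members passed with normexp background correction (-0.31, limma adjusted p = 0.0251, 73.8% of the 172 called). The median of all 172 was -0.64 there, so miR-15b fell less than the typical miRNA. It alone also passed with the authors' series table (-0.34, limma adjusted p = 0.0493, 2.91% called), where the median was 0.007. miR-15a alone passed with scan day as a fixed block (-0.21, limma adjusted p = 0.0429, 9.3% called), where the median was -0.14. With the scaling used for the main fit and slide 1 included, the members lay -0.13 to 0.24 log2 units from the median of all miRNAs.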

How the data were processed

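Small-RNA-enriched lung RNA was labelled with Cy3, per the labels, and hybridised to one-colour Agilent arrays. The deposited values are linear spot intensity, background-subtracted by Feature Extraction (version 10.7.3.1), per the file headers. In addition the authors deposited a series table of log2 values. Its columns correlated at 0.991 to 1 with the scanner values and had medians of 5.41 to 5.43, so log2 and brighter meaning higher were read from it. Its centring stays unknown, and it served as an alternative.

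There were 13715 spots per array, 13000 of them not controls, and 1857 probes. Flagged spots (2.3%) were left out and 0 were saturated. The processed signal was averaged over the spots of a probe and scaled so that the 75th percentile of the 156 probes detected on all 33 arrays was equal. Values under 1 were set to 1 before log2 was taken. The brightest probe stood for a miRNA. The 172 miRNAs above background on at least 4 arrays of a group were tested. A single limma fit (version 3.58.1, R 4.3.3; lmFit, then eBayes with trend) held the 6 group means of all 33 arrays, with two-sided tests, with Benjamini-Hochberg adjustment in each contrast and a threshold of 0.05. Permutation tests used SciPy 1.17.1, exact for groups and with 100000 resamples for correlations. On simulated data for the day 1 comparison of 172 miRNAs, limma recovered 87% of log2 changes of 1 and 100% of changes of 2. In each draw 40 miRNAs were changed, and the simulated arrays held no slide effect. Changes as small as those fitted for the members were not simulated, so their recovery is unknown. The series names separate mice for the arrays of a group. Precision is limited by the number of arrays.

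Named were the 5 members, their partner strands, miR-322, miR-503, and for each member the 2 miRNAs most like it. The members and lists were chosen with earlier results of these data known. As alternatives, normexp (offset 50, on the median signal) was tried, as were total gene signal, other scalings, floors, filters and probes, slide and scan day as blocks, and arrays left out. Leaving slide 1 out of the correlations and of the differences within an array or a slide was chosen after seeing the data. Sequences and positions are RefSeq's on GRCm38.p6.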

Additional observations from a re-analysis of the deposited data

Results flagged for a closer look

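In 20 of 60 groups tested, the array at one end lay far from the other arrays of its group, where chance gives about 1 in 20. Of these, 18 lie on slide 1. The 60 groups are not independent, because the differences within an array reuse the signals and 1 array can be flagged several times. The count of 20 therefore cannot be set against that rate. Among log2 signals, exposed replicate 3 of day 1 was high in miR-15a (10.19), miR-15b (9.39) and miR-195 (9.62). Exposed replicate 4 of day 3 was low in miR-16 (8.85). Control replicate 2 of day 3 was low in miR-16 (9.04) and high in miR-195 (10.00) and miR-497 (9.89).

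Among differences within an array, exposed replicate 3 of day 1 was high in miR-15a minus miR-16 (1.20) and miR-15b minus miR-16 (0.40), and control replicate 1 of day 1 in miR-15a, miR-15b, miR-195 and miR-497 minus miR-16 (1.62, 0.89, 1.18 and 1.14). Exposed replicate 4 of day 3 was high in miR-195 minus miR-16 (0.61), and control replicate 2 of day 3 in the same 4 differences (1.45, 0.60, 0.96 and 0.86). The remaining arrays were on other slides. Exposed replicate 20 of day 28 was high in miR-15b (8.99), and control replicate 22 of day 28 was high in miR-16 (9.75). All 4 arrays of slide 1 share a slide and a scan day, exposed and control alike, and what sets them apart was not tested.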

How the results depend on the processing

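No paired analysis was possible because the groups share 0 replicate numbers, as far as those numbers go. Arrays of a day that share a slide were paired, in the slide blocks and in the 15 differences within a slide. Of 204 counts of called members under 16 alternatives, 197 were as reported. The exceptions for the mean over days were 2 members with slide as a fixed block and 2 with scan day as a fixed block. For control lungs, day 28 against day 1, they were 1 with normexp, 1 with the series table, 1 with scan day as a block and 5 with no scaling. For the difference of the exposure change between days 28 and 1, 4 were called with no scaling. Leaving out each of 33 arrays gave 0 to 0 called members in each contrast. With no scaling, control lungs, day 28 against day 1, turned direction for miR-15a (0.887), miR-15b (0.885), miR-195 (1.008) and miR-497 (0.948), and the difference between days 28 and 1 turned for miR-15a (-1.166) and miR-497 (-1.261). Without scaling these changes contain array brightness. Among 1020 changes under alternatives, 16 passed that did not as reported, 10 with the same and 6 with the other sign, and 117 more had the other sign and passed in neither. The 75 alternatives of the pair differences gave no call. In the day 1 comparison the median of all 172 miRNAs was -0.36 with normexp, 0.09 with the percentile over all probes and 0.56 with no scaling, against -0.10 as reported. Normexp ran on the median signal because the files hold no mean signal. The 4 exposed arrays of day 3 give the widest intervals.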
